A study of Danio rerio with 12 samples.

Results

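Pigment cell genes were followed here through 6 transcripts in zebrafish larvae of 4 genotypes. Of 7 gene identifiers chosen for their known roles in melanophores, xanthophores and iridophores, 6 matched a feature among the 32271 of the expression table, and the remaining one is not analysed here. The 6 members were *tyr* (ENSDARG00000039077), *dct* (ENSDARG00000006008), *tyrp1b* (ENSDARG00000056151), *mitfa* (ENSDARG00000003732), *pmelb* (ENSDARG00000033760) and *gch1* (ENSDARG00000070453). The last 2 had been chosen under the names *pmela* and *gch2*, but the gene name table pairs their identifiers with the symbols pmelb and GCH1, and those names are used here. The genes that the table does call *pmela* (ENSDARG00000091298), *gch2* (ENSDARG00000099101) and *pnp4a* (ENSDARG00000057575) were therefore described beside the members, so that each pigment cell type had at least 1 transcript. The table gives TYRP1 and MITF without a paralog letter, so the names *tyrp1b* and *mitfa* rest on the choice of identifiers.

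Polyadenylated RNA was sequenced from pools of 10 larvae at 3 weeks of age, with 3 pools for each genotype. The larvae were double mutants (mda5mk29/mk29;zbtb24mk22/mk22), *zbtb24* mutants (zbtb24mk22/mk22), *mda5* mutants (mda5mk29/mk29) and WT. *zbtb24* encodes a zinc finger protein that is mutated in ICF syndrome, and *mda5*, also called *ifih1*, encodes a sensor of double-stranded RNA. The design therefore asks what changes without Zbtb24, and whether the change also occurs where Mda5 is lost. Both are germline alleles, carried by every cell of the mutant larvae. The sample labels name fin as the source, whereas the study design describes whole larvae.

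Zebrafish pigment cells arise from the neural crest. Melanophores make black melanin inside melanosomes, xanthophores make yellow pteridines and store carotenoids, and iridophores reflect light from stacks of purine crystals. The retinal pigment epithelium of the eye also makes melanin with the same enzymes, so transcripts for melanin synthesis in whole larvae come from more than one tissue. In RNA from whole larvae, fewer cells of a type and less RNA per cell cannot be told apart.

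Values are FPKM (fragments per kilobase of transcript, relative to the mapped fragments of a library), scaled between libraries by the authors. The study gives an average depth over its samples, but the depth of each library is unknown. Comparisons were made with limma on log2(FPKM + 0.5) over 21623 features whose mean reached 0.5 FPKM, with Benjamini-Hochberg adjustment over all of them. All 6 members passed that filter. A change was called at an adjusted p-value under 0.05. The p-values measure the spread between pools of larvae. *cdca7*, the transcript with the smallest adjusted p-value in *zbtb24* mutants against WT, lay between 0.0118 and 0.101 FPKM in the 6 libraries labelled with the *zbtb24* mutation and between 2.53 and 3.48 FPKM in the 6 without it. The *zbtb24* gene was listed at 1.06 to 1.74 FPKM in the libraries that carry its deletion and at 0.348 to 0.587 FPKM in the others, and a value for the whole gene does not show whether the deleted part was covered. Of the 3 *zbtb24* mutant libraries, replicate 3 stood apart. It had the lowest value of the 12 libraries for 4997 features (23.1%), against 4.70% to 13.4% for each other library, and for 4 of the 6 members, namely *dct*, *tyrp1b*, *pmelb* and *mitfa*.

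In *zbtb24* mutants against WT, 1 of the 6 members was called, *gch1*, which was higher, while 11.6% of all tested features were called (4.92% higher and 6.65% lower). In double against *mda5* mutants, 0 of the 6 members were called in limma and 0 had an unadjusted p-value under 0.05, against 0.134% and 12.3% of all tested features. No member was called in double mutants against WT, *mda5* mutants against WT or double against *zbtb24* mutants either, where 0.402%, 0.00462% and 0.00462% of features were. *dct*, *tyrp1b* and *pmelb* had wide ranges in double and *zbtb24* mutants, and all 3 were lowest in replicate 3 of the *zbtb24* mutants.

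**Figure D1:**
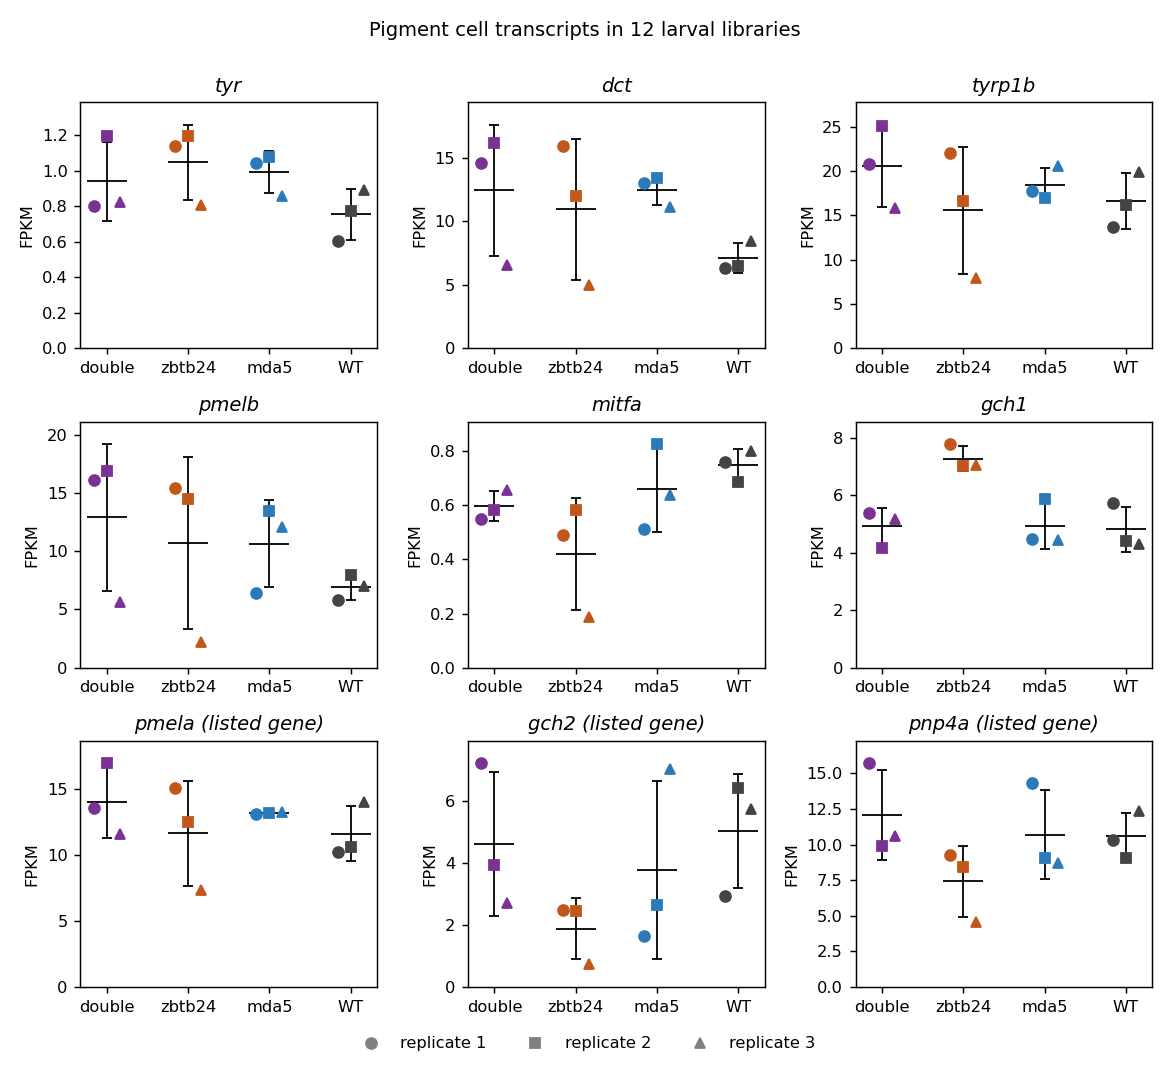
Level of each transcript in FPKM (vertical axes, from 0) in the 3 libraries of each genotype. Coloured symbols are libraries, horizontal bars are means and whiskers are 1 SD (n = 3). The 3 *zbtb24* mutant libraries lie above the 9 others only for *gch1*, and replicate 3 of that genotype is the lowest of all 12 libraries in 7 of the 9 panels.

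The enzymes of melanin synthesis were considered first. Tyrosinase, encoded by *tyr*, carries out the rate-limiting step from tyrosine. *tyr* had 0.798, 1.20 and 0.822 FPKM in double mutants, 1.14, 1.20 and 0.806 FPKM in *zbtb24* mutants, 1.04, 1.07 and 0.857 FPKM in *mda5* mutants, against 0.601, 0.772 and 0.889 FPKM in WT. The *tyr* values of all 4 genotypes overlapped. Its log2 change was 0.30 ± 0.16 (SE) in *zbtb24* mutants against WT (adjusted p = 0.223, limma) and -0.06 ± 0.16 in double against *mda5* mutants (adjusted p = 0.912, limma). *tyr* was a low transcript, with a mean above that of only 9.07% of the tested features, and a pseudocount of 0.5 FPKM understates changes at such a level.

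*dct* encodes dopachrome tautomerase, which acts later in the same pathway. It had 14.6, 16.2 and 6.54 FPKM in double mutants and 16.0, 11.99 and 4.97 FPKM in *zbtb24* mutants. In *mda5* mutants it had 13.0, 13.4 and 11.1 FPKM, and in WT 6.36, 6.50 and 8.44 FPKM. The *mda5* mutant libraries all lay above the WT libraries, as did those of 7.7% of all tested features, whereas replicate 3 of the double mutants fell within the WT range and replicate 3 of the *zbtb24* mutants below it. The log2 change was 0.68 ± 0.40 in double mutants against WT (adjusted p = 0.555, limma), 0.46 ± 0.40 in *zbtb24* mutants against WT (adjusted p = 0.448, limma) and 0.78 ± 0.40 in *mda5* mutants against WT (adjusted p = 0.396, limma). These 3 comparisons share the WT libraries. Without replicate 3 of the *zbtb24* mutants, their change against WT was 0.93 (adjusted p = 0.106, limma), above the 0.78 of *mda5* mutants. The place of *zbtb24* mutants in the order of levels given below thus depended on that library. Against *mda5* mutants, *dct* in double mutants differed by -0.10, with a 95% interval of -0.98 to 0.78 (adjusted p = 0.942, limma), an interval that holds changes of over 1.5-fold in either direction. By mean level the order was *mda5* mutants (12.5 ± 1.22 FPKM), double mutants (12.4 ± 5.18 FPKM), *zbtb24* mutants (10.97 ± 5.56 FPKM) and WT (7.10 ± 1.16 FPKM; SD, n = 3 each), and no neighbours in it differed past the threshold.

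*tyrp1b* encodes tyrosinase-related protein 1, the third protein of this enzyme family. It had 20.8, 25.1 and 15.9 FPKM in double mutants, 22.1, 16.7 and 7.92 FPKM in *zbtb24* mutants, 17.7, 17.0 and 20.6 FPKM in *mda5* mutants, against 13.7, 16.2 and 19.9 FPKM in WT. Unlike *dct*, *tyrp1b* in *mda5* mutants overlapped WT. The log2 change was -0.19 ± 0.31 in *zbtb24* mutants against WT (adjusted p = 0.711, limma) and 0.14 ± 0.31 in double against *mda5* mutants (adjusted p = 0.892, limma). Without replicate 3 of the *zbtb24* mutants the first of these values was 0.22 (adjusted p = 0.526, limma), so its direction was set by that library.

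The premelanosome proteins form the fibrils on which melanin is laid down. *pmelb* had 16.2, 16.9 and 5.64 FPKM in double mutants, 15.4, 14.5 and 2.18 FPKM in *zbtb24* mutants, 6.45, 13.5 and 12.1 FPKM in *mda5* mutants, against 5.80, 8.00 and 7.01 FPKM in WT. Its highest library was 7.76 times its lowest, the widest range of the 6 members. Replicates 1 and 2 of the *zbtb24* mutants lay above every WT library and replicate 3 below every one. The log2 change of *pmelb* was 0.22 ± 0.64 in *zbtb24* mutants against WT (adjusted p = 0.839, limma) and 0.18 ± 0.64 in double against *mda5* mutants (adjusted p = 0.934, limma). Without replicate 3 the first value was 1.07 (adjusted p = 0.152, limma), and without replicate 1 or 2 of the *zbtb24* mutants it was -0.22 or -0.17.

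The second premelanosome gene, *pmela*, was steadier. It had 13.5, 16.9 and 11.6 FPKM in double mutants, 15.1, 12.5 and 7.31 FPKM in *zbtb24* mutants, 13.1, 13.2 and 13.3 FPKM in *mda5* mutants, against 10.2, 10.6 and 14.0 FPKM in WT. The *mda5* mutants lay in a narrow band inside the WT range, and the other genotypes also overlapped WT. Its log2 change was -0.04 ± 0.23 in *zbtb24* mutants against WT (adjusted p = 0.924, limma) and 0.07 ± 0.23 in double against *mda5* mutants (adjusted p = 0.932, limma).

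*mitfa* encodes the transcription factor on which the zebrafish melanophore lineage depends. It had 0.550, 0.582 and 0.658 FPKM in double mutants, 0.489, 0.584 and 0.189 FPKM in *zbtb24* mutants, 0.514, 0.827 and 0.638 FPKM in *mda5* mutants, against 0.760, 0.686 and 0.801 FPKM in WT. All 3 *zbtb24* mutant libraries lay below all 3 WT libraries, as they did for 18.5% of the tested features. The log2 change was -0.47 ± 0.18 (unadjusted p = 0.0266 and adjusted p = 0.109, limma), and without replicate 3 of the *zbtb24* mutants it was -0.27 (adjusted p = 0.281, limma). In double against *mda5* mutants the libraries overlapped and the log2 change was -0.07 ± 0.18 (adjusted p = 0.902, limma). *mitfa* was the lowest of the members, with a mean above that of 2.53% of tested features. The melanophore regulator thus had lower values in *zbtb24* mutants than in WT in libraries where *dct* and *pmelb* had higher ones (replicates 1 and 2).

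**Figure D2:**
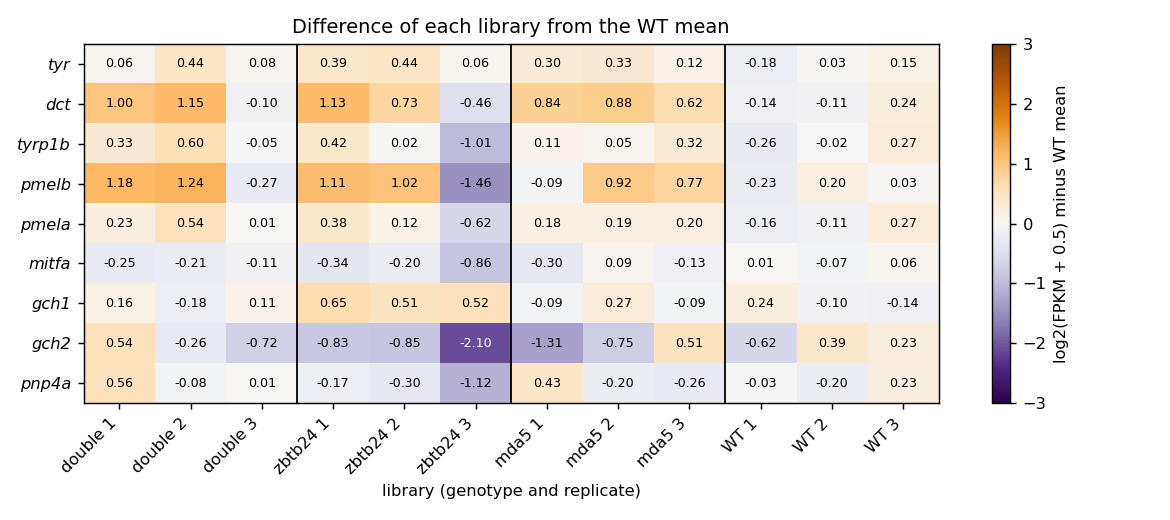
Difference of each library from the WT mean on the log2(FPKM + 0.5) scale (colour and printed value), for 9 transcripts (rows) in 12 libraries (columns, grouped by genotype). Replicate 3 of the *zbtb24* mutants reached -1.46 for *pmelb* and -2.10 for *gch2* but 0.52 for *gch1*.

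Averaged over *tyr*, *dct*, *tyrp1b*, *pmelb* and *mitfa*, the difference from the WT mean on the log2 scale was 0.46, 0.64 and -0.09 in the double mutant libraries and 0.54, 0.40 and -0.74 in the *zbtb24* mutant libraries. It was 0.17, 0.46 and 0.34 in the *mda5* mutant libraries and -0.16, 0.01 and 0.15 in the WT libraries. This average was above 0 in 7 of the 9 mutant libraries and below it in replicate 3 of the double and of the *zbtb24* mutants. The 5 genes did not share that pattern. *tyr* was above its WT mean in all 9 mutant libraries, *dct* and *tyrp1b* in 7 and *pmelb* in 6, while *mitfa* was below its WT mean in 8 of the 9.

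The pteridine pathway of xanthophores starts with GTP cyclohydrolase, for which zebrafish has more than one gene. *gch2* is the paralog used by xanthophores, while *gch1* is known for supplying the cofactor of the aromatic amino acid hydroxylases in neurons. *gch1* had 5.40, 4.17 and 5.20 FPKM in double mutants, 7.79, 7.02 and 7.05 FPKM in *zbtb24* mutants, 4.47, 5.87 and 4.46 FPKM in *mda5* mutants, against 5.73, 4.42 and 4.29 FPKM in WT. Every *zbtb24* mutant library was above every library of the other 3 genotypes. *gch1* rose in *zbtb24* mutants against WT by a log2 change of 0.56 ± 0.14, with a 95% interval of 0.24 to 0.88 (adjusted p = 0.0357, limma; libraries above all WT libraries, as for 15.6% of tested features). In double against *mda5* mutants its log2 change was 0.00, with a 95% interval of -0.32 to 0.32, and in double against *zbtb24* mutants it was -0.53 ± 0.14 (adjusted p = 0.324, limma; no overlap, as for 9.68% of tested features in that direction). The log2 change of *gch1* in double against *mda5* mutants, less its change in *zbtb24* mutants against WT, was -0.56 ± 0.20 (unadjusted p = 0.0190 and adjusted p = 0.133, limma), in a comparison where 0 features were called and 25.1% had an unadjusted p-value under 0.05. The call for *gch1* was narrow. It was lost without any one of the 3 *zbtb24* mutant libraries (adjusted p = 0.0733, 0.0767 and 0.0653, limma, without replicates 1, 2 and 3), without WT replicate 2 or 3 (0.0615 and 0.137) and in a fit of only the compared genotypes (0.103), while the log2 change stayed between 0.49 and 0.68 without each library in turn.

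*gch2* gave another picture. It had 7.20, 3.91 and 2.72 FPKM in double mutants, 2.47, 2.43 and 0.735 FPKM in *zbtb24* mutants, 1.63, 2.64 and 7.02 FPKM in *mda5* mutants, against 2.94, 6.42 and 5.72 FPKM in WT. The *zbtb24* mutant libraries lay below every WT library, as for 18.5% of tested features, and below every double mutant library, as for 11.7%. However, *mda5* replicate 1 lay among them and the spread within genotypes was wide. The log2 change of *gch2* was -1.26 ± 0.52 in *zbtb24* mutants against WT (unadjusted p = 0.0340 and adjusted p = 0.126, limma) and 0.37 ± 0.52 in double against *mda5* mutants (adjusted p = 0.802, limma). The difference between these changes, taken in the same direction, was 1.63 ± 0.73 (unadjusted p = 0.0484 and adjusted p = 0.196, limma), so neither value passed the threshold. For that difference 25.1% of all tested features had an unadjusted p under 0.05. Without replicate 3 of the *zbtb24* mutants the change against WT was -0.84 (adjusted p = 0.323, limma).

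*pnp4a* encodes a purine nucleoside phosphorylase that marks iridophores, where purines are made for the reflecting crystals. It had 15.7, 9.88 and 10.6 FPKM in double mutants, 9.25, 8.44 and 4.57 FPKM in *zbtb24* mutants, 14.3, 9.08 and 8.69 FPKM in *mda5* mutants, against 10.3, 9.08 and 12.4 FPKM in WT. All but 1 of the *zbtb24* mutant libraries were below all WT libraries. The log2 change of *pnp4a* was -0.53 ± 0.28 in *zbtb24* mutants against WT (adjusted p = 0.214, limma) and 0.17 ± 0.28 in double against *mda5* mutants (adjusted p = 0.834, limma). Without replicate 3 of the *zbtb24* mutants the first of these values was -0.24 (adjusted p = 0.553, limma).

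**Figure D3:**
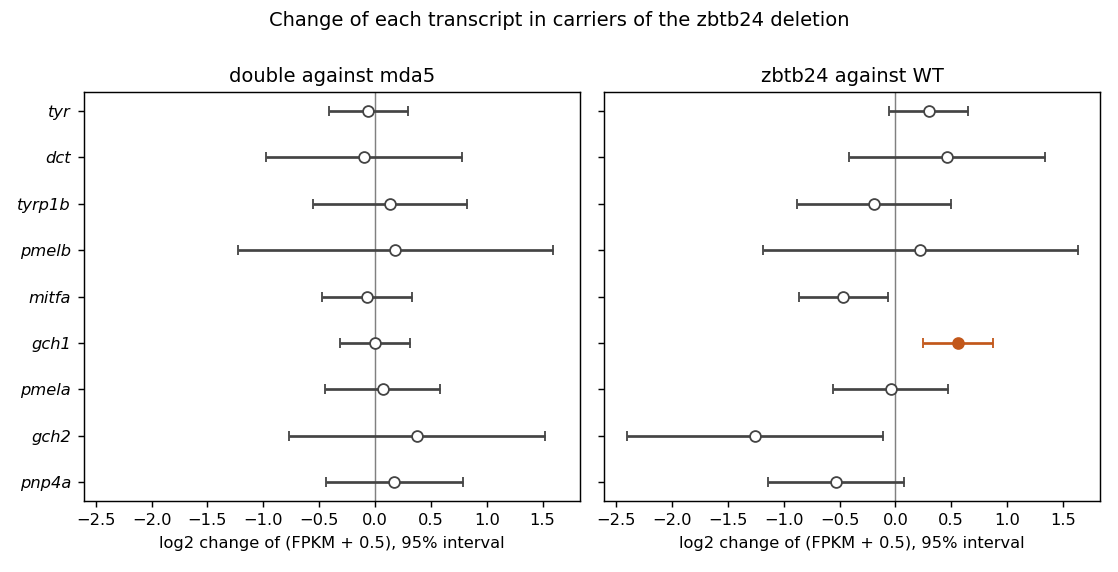
Log2 change of (FPKM + 0.5) with its 95% interval (horizontal axis) for 9 transcripts (rows) in double against *mda5* mutants (left) and in *zbtb24* mutants against WT (right). The filled point marks the only call, *gch1* at 0.56, and the intervals for *pmelb* run from -1.19 to 1.63 on the right.

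The members were then compared with each other over the 12 libraries. Of the 15 pairs, 4 had a Pearson correlation with an adjusted p under 0.05 (permutation test with 100000 resamples, two-sided, adjusted over the 15 pairs) and 3 of them also passed by Spearman's coefficient. *dct* and *pmelb* had r = 0.87 and rho = 0.87 (raw permutation p = 0.0003 and 0.00061, adjusted 0.00255 and 0.00457). *tyrp1b* and *pmelb* had r = 0.85 and rho = 0.83 (raw permutation p = 0.00096 and 0.00161, adjusted 0.00480 and 0.00805). *dct* and *tyrp1b* had r = 0.80 and rho = 0.88 (raw permutation p = 0.00034 and 0.00037, adjusted 0.00255 and 0.00457). *dct*, *tyrp1b* and *pmelb* thus went up and down together over the 12 libraries. The permutation exchanged all 12 libraries regardless of genotype, so its p-values do not separate differences between genotypes from those between pools. *tyr* and *dct* had r = 0.74 and rho = 0.68 (raw permutation p = 0.00710 and 0.0178, adjusted 0.0266 and 0.0669). The pairs of *tyr* with *tyrp1b* (r = 0.47, adjusted permutation p = 0.241) and with *pmelb* (r = 0.56, adjusted permutation p = 0.163) did not pass.

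Within genotypes, after each genotype's mean was taken off, the r of these 4 pairs was 0.89, 0.87, 0.90 and 0.71, in the order above. Without the 2 libraries farthest from the median of the first gene it was 0.78, 0.61, 0.66 and 0.74. The pairs shared scaling, pools and, for 3 of the 4, the low values of *zbtb24* replicate 3, without which r was 0.82, 0.68, 0.75 and 0.76. No pair with *mitfa* or *gch1* passed, and r over all 15 pairs ran from -0.45 to 0.87. For *mitfa* with *tyrp1b*, r was 0.54 over all 12 libraries and -0.47 without *zbtb24* replicate 3, so its sign rested on that library.

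Among the 21617 tested features outside the members, the one most like the mean profile of the 5 melanophore members was *pmela*, with r = 0.95 over the 12 libraries. The other listed melanophore genes did not all follow this profile. Their r with it ran from 0.79 for the TYRP1 feature ENSDARG00000029204 to -0.41 for *kita*, with *slc45a2* at 0.13 and *mlpha* at -0.27. *pmela* was also first of 21622 features in likeness to *tyrp1b* alone (r = 0.97), and *pmelb* was 4th in likeness to *dct*. Other ranks of members were lower. In likeness to *tyrp1b*, *pmelb* was 57th, *dct* 232nd and *tyr* 3363rd, and in likeness to *dct*, *mitfa* was 6779th. The feature most like *gch2* was *slc2a11b* (ENSDARG00000063288), a solute carrier gene known from medaka for its part in yellow and white pigment cells, with r = 0.98. *slc2a11b* had 5.36, 3.59 and 3.09 FPKM in double mutants, 2.49, 2.31 and 0.997 FPKM in *zbtb24* mutants, 1.96, 2.73 and 5.23 FPKM in *mda5* mutants, against 3.60, 4.94 and 4.98 FPKM in WT. The listed xanthophore gene *aox5* came 6th in likeness to *gch2* (r = 0.92). The other listed xanthophore genes did not all follow *gch2*. Their r with it ran from 0.75 for *slc2a15a* down to -0.12 for *pts* and -0.32 for *csf1ra*. In contrast, the feature most like *gch1* was DIS3L2 (ENSDARG00000033259), which encodes an RNA exonuclease (r = 0.91), and the one most like *pnp4a* was CISD1 (ENSDARG00000079516; r = 0.95). These correlations describe 12 libraries that share scaling and pools. *gch1* had an r of -0.58 with *aox5* and of -0.58 with *gch2*.

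**Figure D4:**
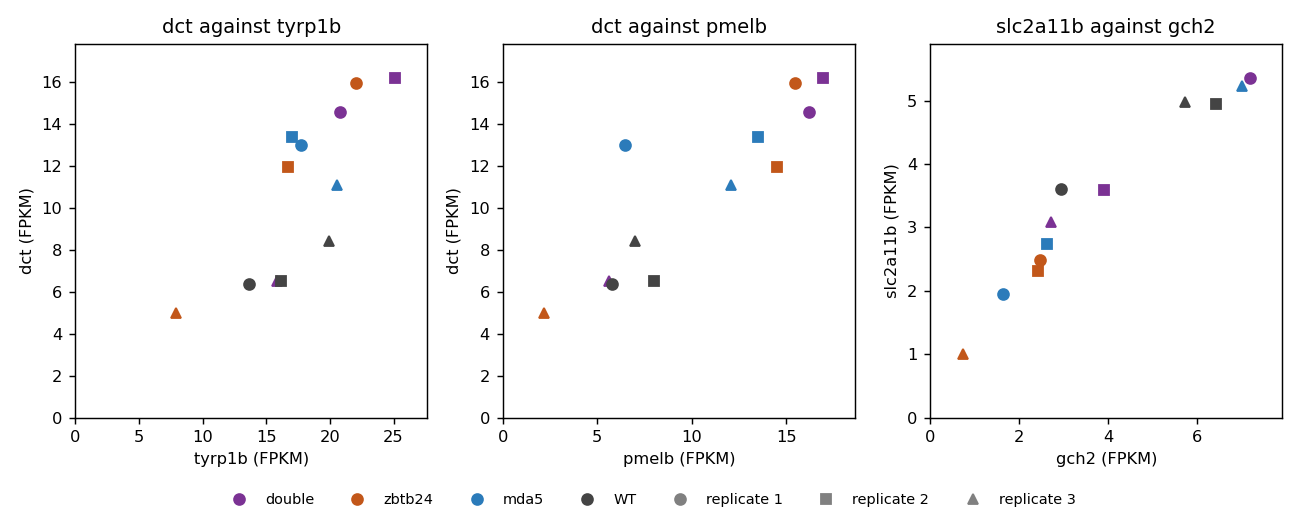
FPKM of *dct* against *tyrp1b* (left) and against *pmelb* (middle), and of *slc2a11b* against *gch2* (right), with 1 point for each of the 12 libraries, coloured by genotype and shaped by replicate. Replicate 3 of the *zbtb24* mutants lies nearest the origin in each panel, and *slc2a11b* follows *gch2* across all genotypes (r = 0.98).

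The relation of *dct* to *tyrp1b* was also examined as a ratio, chosen after the values were seen and given as a description. *dct* divided by *tyrp1b* was 0.700, 0.645 and 0.412 in double mutants, 0.723, 0.718 and 0.628 in *zbtb24* mutants, 0.732, 0.788 and 0.541 in *mda5* mutants, and 0.465, 0.402 and 0.423 in WT. Of the 9 mutant libraries, 8 lay above all WT libraries, the exception being replicate 3 of the double mutants. In the *zbtb24* mutants the low replicate 3 kept its ratio near that of the other 2 libraries, since both transcripts were low in it. How often other ratios separate the genotypes this way was not examined. *tyr* divided by *tyrp1b* was 0.0440 to 0.0477 in WT and 0.0383 to 0.0518 in double mutants. It was 0.0516 to 0.102 in *zbtb24* and 0.0417 to 0.0631 in *mda5* mutants. *dct* divided by *pmela* was 0.602 to 0.622 in WT and 0.566 to 1.08 in double mutants. It was 0.680 to 1.06 in *zbtb24* and 0.838 to 1.02 in *mda5* mutants.

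Other pigment cell genes were taken from symbol lists, which gave 40 further identifiers, 38 of them tested, *pmela*, *gch2* and *pnp4a* included. In *zbtb24* mutants against WT, 0 of the 38 were called higher and 2 lower, both in the list of neural crest and precursor genes. The 2 are 5.26% of the 38, against 6.65% of all tested features called lower. The log2 change was below 0 for 30 of the 38, with a median of -0.14, against -0.0044 for all tested features. Without replicate 3 of the *zbtb24* mutants, a setting chosen after the data were seen, 26 of the 38 were below 0, the median was -0.16 and 0 were called in either direction. By list, the median was -0.04 for 11 melanophore genes, -0.12 for 9 xanthophore genes, -0.15 for 11 iridophore genes and -0.33 for 7 precursor genes. Of the 11 melanophore genes 8 were below 0. In double against *mda5* mutants 0 of the 38 were called in limma, against 0.134% of all tested features, and 3 (7.89%) had an unadjusted p under 0.05, against 12.3%. Of the 38, 18 were above 0 and 20 below, and the median was -0.03. Replicate 3 of the *zbtb24* mutants was the lowest of the 12 libraries for 16 of the 38.

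Both genes that fell encode transcription factors of the early neural crest. *tfap2a* had 20.6, 20.2 and 14.6 FPKM in *zbtb24* mutants, against 26.1, 31.0 and 28.4 FPKM in WT, and its log2 change was -0.63 ± 0.15 (adjusted p = 0.0277, limma). It had 19.4, 21.7 and 25.1 FPKM in double mutants, against 26.1, 29.9 and 27.6 FPKM in *mda5* mutants, a log2 change of -0.33 ± 0.15 (adjusted p = 0.397, limma) with no overlap of the libraries, as for 9.15% of tested features. *tfap2a* is also expressed in the epidermis, so it is not particular to pigment cells. The skin genes *krt4* and *krt5* had higher values in double than in *mda5* mutants, and the part of skin in the *tfap2a* values was not tested. *foxd3* had 8.56, 8.72 and 8.28 FPKM in *zbtb24* mutants, against 10.4, 14.7 and 13.5 FPKM in WT, and its log2 change was -0.56 ± 0.15 (adjusted p = 0.0426, limma). In double against *mda5* mutants *foxd3* overlapped, with a log2 change of -0.16 ± 0.15 (adjusted p = 0.703, limma). Without replicate 3 of the *zbtb24* mutants the adjusted p was 0.0531 for *tfap2a* and 0.0916 for *foxd3* (limma), without replicate 2 of that genotype 0.0502 and 0.0909, and without WT replicate 3 it was 0.0982 and 0.148. The *foxd3* call was also lost without *zbtb24* replicate 1 (0.0725), WT replicate 2 (0.0847), double replicate 1 (0.0546), *mda5* replicate 1 (0.0546) and *mda5* replicate 2 (0.0596). Quantile normalization ended both calls (adjusted p = 0.0586 for *tfap2a* and 0.0628 for *foxd3*, limma), as did a fit of only the compared genotypes (0.108 and 0.109), and without a filter on low values *foxd3* was at 0.0542.

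Of the 20 listed xanthophore and iridophore genes, 16 were below 0 and 4 above in *zbtb24* mutants against WT. The libraries did not overlap for 8 of them. The 7 that lay lower (35%, against 18.5% of all tested features) were *gch2*, *aox5*, *scarb1*, *pnp4b*, *mpv17*, *gmps* and the IMPDH1 feature ENSDARG00000029524. Their log2 changes ran from -1.26 for *gch2* to -0.20 for that IMPDH1 feature and -0.15 for *gmps*. The part of other tissues in these values was not tested. The 1 that lay higher, as did 15.6% of all tested features, was the IMPDH1 feature ENSDARG00000042336. In double against *mda5* mutants 13 of the 20 were above 0 and 7 below. There 1 lay higher and 1 lower with no overlap, against 12% and 9.15% of all tested features. *aox5* and *pnp4b* are given in full, a choice made after the values were seen. *aox5*, which encodes an aldehyde oxidase that marks xanthophores, had 2.08, 1.90 and 0.869 FPKM in *zbtb24* mutants, against 2.23, 3.12 and 3.08 FPKM in WT, with a log2 change of -0.69 ± 0.24 (adjusted p = 0.0777, limma). In double mutants it had 3.07, 2.81 and 2.43 FPKM, against 1.58, 1.77 and 2.50 FPKM in *mda5* mutants, with a log2 change of 0.43 ± 0.24 (adjusted p = 0.485, limma). The difference between these changes, taken in the same direction, was 1.12 ± 0.33 (unadjusted p = 0.00675 and adjusted p = 0.106, limma). For that difference 25.1% of all tested features had an unadjusted p under 0.05. Without replicate 3 of the *zbtb24* mutants the change of *aox5* against WT was -0.40 (adjusted p = 0.186, limma). The difference was then 0.83 (adjusted p = 0.134, limma). *pnp4b*, a second purine nucleoside phosphorylase gene, had 33.6, 50.2 and 40.9 FPKM in *zbtb24* mutants, against 65.2, 62.9 and 81.7 FPKM in WT, with a log2 change of -0.75 ± 0.27 (adjusted p = 0.0884, limma), and in double against *mda5* mutants the log2 change was -0.02 ± 0.27 (adjusted p = 0.985, limma). The 4 genes above 0 in *zbtb24* mutants against WT were *csf1ra*, a receptor gene of the xanthophore lineage (log2 change 0.42), the PAX7 feature ENSDARG00000100398 (0.33), *ltk*, a receptor gene of the iridophore lineage (0.26), and IMPDH1 ENSDARG00000042336 of purine synthesis (0.40, adjusted p = 0.0774, limma). Without replicate 3 of the *zbtb24* mutants, the highest of the 12 libraries for *csf1ra*, these log2 changes were 0.18, 0.40, 0.28 and 0.39, in the same order. With all 12 libraries none of the 20 passed the threshold, although IMPDH1 ENSDARG00000042336 did without *mda5* replicate 1 (adjusted p = 0.0495, limma).

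**Figure D5:**
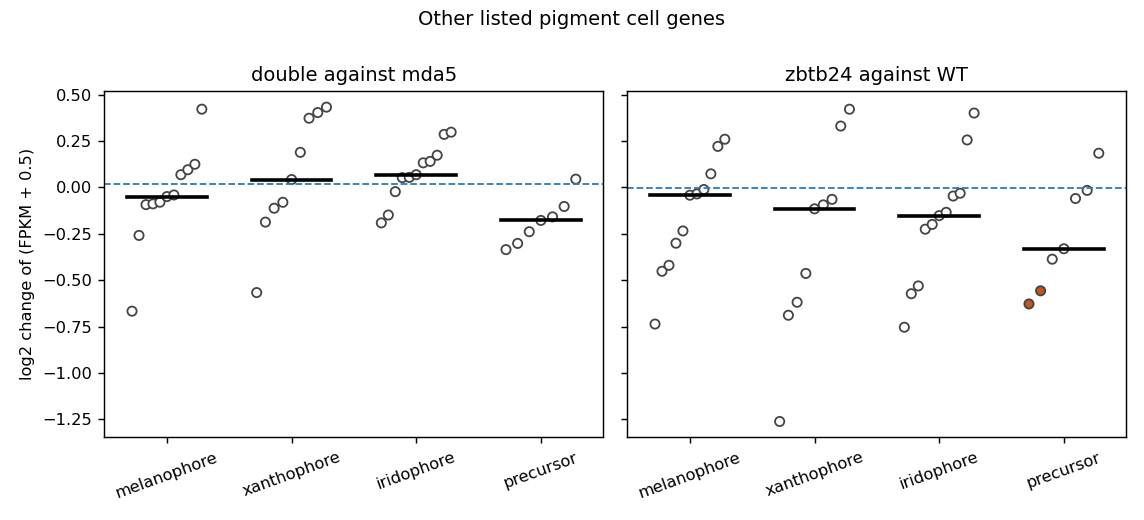
Log2 change of (FPKM + 0.5) (vertical axis) of the 38 other listed pigment cell genes, by list (horizontal axis), in double against *mda5* mutants (left) and *zbtb24* mutants against WT (right). Points are genes, filled where called, black bars are list medians and the dashed line is the median of all tested features. The 2 filled points on the right are *tfap2a* and *foxd3*.

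Markers of other tissues were read beside these results, and their part in them was not tested. Of 3 features annotated as RPE65, the visual cycle enzyme of the retinal pigment epithelium, ENSDARG00000007480 was the most abundant. It had 57.7, 51.6 and 22.5 FPKM in double mutants, 41.6, 47.5 and 25.4 FPKM in *zbtb24* mutants, 67.9, 73.4 and 64.5 FPKM in *mda5* mutants, against 39.5, 33.6 and 43.5 FPKM in WT. Replicate 3 was low in the double and *zbtb24* mutants and the *mda5* mutants were all above WT, as for *dct*, and its r with *dct* over the 12 libraries was 0.77. Unlike *dct*, ENSDARG00000007480 lay lower in double than in *mda5* mutants with no overlap, as for 9.15% of tested features. Its log2 change there was -0.75 ± 0.32 (adjusted p = 0.395, limma). The other 2 RPE65 features, ENSDARG00000054420 and ENSDARG00000094752, lay between 0.514 and 1.18 FPKM and between 2.21 and 4.57 FPKM, each lowest in *zbtb24* replicate 3. In *mda5* mutants both overlapped WT, with log2 changes of 0.01 and -0.27, unlike *dct*. Their r with *dct* was 0.46 and 0.27. With *tyrp1b* it was 0.77 and 0.57, against 0.57 for ENSDARG00000007480. With the mean profile of the 5 melanophore members it was 0.74 and 0.46, against 0.69. The lens crystallin *cryaa* had 21.1, 30.3 and 46.0 FPKM in *zbtb24* mutants, against 107, 68.4 and 81.4 FPKM in WT, and fell by 1.43 on the log2 scale (adjusted p = 0.0383, limma). The *cryaa* call was lost without any of 7 libraries in turn (*zbtb24* replicates 1 and 2, *mda5* replicates 1, 2 and 3, and WT replicates 1 and 3), with an adjusted p of up to 0.120 (limma). It was also lost without a filter on low values (0.0539), with quantile normalization (0.0549) and in a fit of only the compared genotypes (0.0876). In double mutants *cryaa* had 9.73, 24.8 and 27.8 FPKM, against 56.8, 64.9 and 55.9 FPKM in *mda5* mutants. Its log2 change there was -1.62 ± 0.37 (adjusted p = 0.151, limma). In double mutants against WT it was -2.12 ± 0.37 (adjusted p = 0.0461, limma), in a comparison where 0.402% of features were called. How that call depends on single libraries is not given here. The keratin genes *krt4* and *krt5* of the skin were at 653 to 1446 FPKM and 1625 to 3142 FPKM over the 12 libraries, and *fabp10a* of the liver at 903 to 3185 FPKM. All 3 lay higher in double than in *mda5* mutants with no overlap, as for 12% of tested features, with log2 changes of 0.82 for *krt4*, 0.66 for *krt5* and 1.27 for *fabp10a* (adjusted p = 0.101, 0.271 and 0.110, limma; unadjusted p = 0.00031, 0.00691 and 0.000535). In *mda5* mutants against WT their log2 changes were -0.38, -0.50 and -0.87, in the same order. In double mutants against WT they were 0.44, 0.16 and 0.40, and in *zbtb24* mutants against WT 0.02, 0.02 and -0.16. None of these was called. Fin lacks lens and liver, and transcripts of both were present in every library. The muscle gene *myhz2* was listed at 0 in every library.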

How the data were processed

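FPKM of 12 libraries were analysed as deposited by the authors. Per the labels and the study's methods, reads were trimmed with Trimmomatic 0.33, mapped with TopHat 2.1.1 to GRCz10 with a supplied annotation, and quantified and scaled between libraries with Cuffquant and Cuffnorm (Cufflinks 2.2.1). The table held 0 further columns of sample values. Only an average depth is stated in the study and that of each library is unknown, so no counting error was given. A value of exactly 0 is called listed at 0.

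A gene name table gave symbols for 26418 of 32271 identifiers. Members and lists were chosen with earlier results of these data known. Of 7 member identifiers 6 matched, leaving 15 pairs. Of 50 listed symbols 49 had an identifier. Every member is named, and so is the feature most correlated with each class profile. Other genes were named after their values were seen.

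Features whose mean reached 0.5 FPKM were fitted on log2(FPKM + 0.5) with limma 3.58.1 in R 4.3.3 (4 genotype means, 8 residual degrees of freedom, eBayes with trend), two-sided, after a check on simulated data. Replicate numbers were not used to pair the pools in this fit. In all, 21 alternatives were tried. Sequences were not used here.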

Additional observations from a re-analysis of the deposited data

Results flagged for a closer look

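*mpv17*, whose loss in zebrafish removes iridophores, drew attention because its libraries lay on opposite sides of their controls without and with functional Mda5. It had 4.57, 5.39 and 4.36 FPKM in double mutants, all above the 4.20, 3.62 and 3.53 FPKM in *mda5* mutants, as for 12% of tested features. It had 3.97, 4.15 and 1.66 FPKM in *zbtb24* mutants, all below the 4.50, 4.86 and 4.996 FPKM in WT, as for 18.5% of tested features. The log2 change was 0.30 ± 0.24 (SE) in double against *mda5* mutants and -0.57 ± 0.24 in *zbtb24* mutants against WT, and the first less the second was 0.87 ± 0.34 (unadjusted p = 0.0284 and adjusted p = 0.156, limma), so the difference did not pass the threshold. For that difference 25.1% of all tested features had an unadjusted p under 0.05. Without replicate 3 of the *zbtb24* mutants the change against WT was -0.21 (adjusted p = 0.246, limma). The difference was then 0.51 (adjusted p = 0.134, limma).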

How the results depend on the processing

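Of the 21 alternatives, 12 left out 1 library each. The single member called in *zbtb24* mutants against WT was kept by 7 of the other 9, namely both pseudocounts, both filters, both scalings and the fit without a trend, and lost (0 members called) in the fit of only the compared genotypes and with the replicate number as a block. Leaving out each library gave 0 to 1 members called. In the other 5 comparisons 0 members were called under every alternative run, and 3 to 4 of the 15 member pairs correlated.

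Counts over all features moved more. With only the compared genotypes in the fit, 221 features were called in *zbtb24* mutants against WT, 3 in double against *mda5* mutants, 9 in double mutants against WT, 3 in *mda5* mutants against WT and 2 in double against *zbtb24* mutants. With quantile normalization the last 2 counts were 3 and 2, and with a pseudocount of 1 the last was 2. Leaving out each library gave 246 (without WT replicate 3) to 3456 (without WT replicate 2) features in *zbtb24* mutants against WT, 13 to 37 in double against *mda5* mutants, 25 to 144 in double mutants against WT, 1 to 3 in *mda5* mutants against WT, 1 to 5 in double against *zbtb24* mutants and 0 to 2128 for the difference between the changes, the last without WT replicate 2.

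With the replicate number as a block, 1578 features were called in *zbtb24* mutants against WT, 46 in double mutants against WT and 0 members, with *gch1* at an adjusted p of 0.0551 and *foxd3* at 0.0722 (limma). Over all tested features same-numbered libraries did not deviate together (r from -0.12 to 0.17 over 18 pairs), and the main fit did not use the numbers. Whether some pools shared a clutch or batch was not tested.

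Values that changed direction were all uncalled. On the log2 scale, in double against *mda5* mutants *gch1* was -3.12e-05 with a pseudocount of 1, and in *zbtb24* mutants against WT *pmela* was 0.029 with quantile normalization. Leaving out each library gave, in *zbtb24* mutants against WT, -0.49 to 0.22 for *tyrp1b*, -0.22 to 1.07 for *pmelb* and -0.25 to 0.25 for *pmela*. In double against *mda5* mutants it gave -0.18 to 0.0098 for *tyr*, -0.33 to 0.29 for *dct*, -0.016 to 0.31 for *tyrp1b*, -0.13 to 0.67 for *pmelb*, -0.17 to 0.028 for *mitfa*, -0.064 to 0.12 for *gch1*, -0.072 to 0.19 for *pmela*, -0.023 to 0.89 for *gch2*, -0.024 to 0.39 for *pnp4a* and -0.30 to 0.26 for *pnp4b*. The depth of each library is unknown, so low values such as those of *mitfa* and *tyr* are given without a counting error. With 3 pools per genotype the spread between pools limits each statement, beside the processing and a possible shared clutch or batch.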
